A study of Arabidopsis thaliana with 24 samples.

Results

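Within minutes of strong light, some leaf transcripts were depleted rather than accumulated. The 100 transcripts described here were those of *Arabidopsis thaliana* whose steady-state level in the local leaf, under a drop of water, was more than 2-fold lower after high light than without it. They were taken from the 32833 genes of the table by a rule on 6 libraries: a mean of at least 50 in the water control local leaf, of which 14626 genes had as much, and a difference in mean log2(normalized count + 1) below -1. FSD1 (AT4G25100) and AT5G45670, which also passed, were left out by the rule. Because the rule used the water local leaf, every value of that leaf is a description without a test, and the transcripts were followed in the other 18 libraries. All 100 passed the filter on low values, which also let 18314 genes in all be tested.

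The plants were wild type Col-0, 4 to 5 weeks old, grown at 23°C in days of 8 h of light at 50 µmol m−2 s−1. A drop of 0.3% agarose was set between the local and the systemic leaf for 15 min in every plant. It carried 50 mM diphenyleneiodonium (DPI), which blocks flavoproteins and so the NADPH oxidases, sources of reactive oxygen species, or water only. The local leaf alone then received 8 min of light at 2000 µmol m−2 s−1 or none, which gave 8 groups of 3 libraries: DPI high light, DPI control, water high light and water control, each in the systemic and in the local leaf.

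High light was not given to the systemic leaf, and a light response there means the difference between the systemic leaves of plants with and without a lit local leaf. The paper describes sampling at the outset and at the end of the light treatment. Control plants would then have had less time under the drop than lit plants. A light response in either leaf can thus include the added time under DPI or water, and its part was not tested. According to the study's methods leaves of many plants were pooled for each library, as biological replicates. Library totals ranged from 13492454 to 26913744 reads, which puts the floor of 3 reads at 2.00 to 4.27 normalized counts. Replicates of a group correlated at 0.987 to 0.994, and p-values measure the spread between such pools. Mesophyll photosynthesis markers were high in every library and 3 of 6 root markers (RHD6, IRT1 and SHV2) were at 0 in all of them, while SCR, SHR and PYK10, the other 3, were detected.

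A steady-state level is set by synthesis and by decay, so it can drop only as fast as the existing RNA is removed. SAUR genes (small auxin up RNAs), which promote cell expansion, give transcripts known to be short-lived, and type-A response regulators dampen cytokinin signalling. The cuticle, the layer of cutin and wax on the leaf surface, is made by epidermal cells from very-long-chain and hydroxylated fatty acids.

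In the water local leaf, the log2 difference that chose the transcripts had a median of -1.23 and ran to -6.06.  Just inside the threshold were BRG1 (-1.007), WRKY23 (-1.006) and AT3G54400 (-1.003), and just outside it were AT5G43020 (-0.9996), IRX12 (-0.998) and WSD1 (-0.990). Values ran on without a gap across the threshold.

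Under DPI, high light lowered most of these transcripts in the local leaf too. Of the 100, 87 fell and 1 rose (limma, adjusted p under 0.05), where 15.9% of all tested transcripts fell and 17.9% rose. At least 2-fold falls that passed the test numbered 49, against 3.06% of all tested transcripts. The median difference was -0.93, against 0.00 over all tested transcripts. In 86 transcripts all 3 high light libraries lay below all 3 controls, against 20.2% of all tested transcripts. The fall was smaller under DPI than under water in 85 of the 100, a description without a test. Because the 100 were chosen for a large fall under water, a smaller one elsewhere is favoured by the choice itself. The choice also favours a high level in the water control of the local leaf. The DPI control minus water control difference of that leaf had a median of -0.41, again without a test. In the systemic leaf, which the rule did not use, the same difference had a median of 0.04, with 24 lower and 30 higher.

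The systemic leaf did not follow as a set under water, where transcripts went both ways, and under DPI it followed in a smaller part of them. Under water, 6 of the 100 fell and 18 rose, where 3.1% of all tested transcripts fell and 7.66% rose, and the median difference was 0.02. All 3 high light libraries lay below all 3 controls in 20, against 10.3% of all tested transcripts. They all lay above in 25, against 14.4%. The 6 that fell became 3 without water high light systemic replicate 1 and were 13 with edgeR. Under DPI, 17 fell and 4 rose, where 4.56% fell and 7.15% rose, and the median was -0.12. The difference under DPI was negative in 71 of the 100. In 35 all 3 high light libraries lay below all 3 controls, against 12.7% of all tested transcripts. In 10 they all lay above, against 14.4%. The 4 that rose became 2 without DPI high light systemic replicate 3. The light response under DPI was less negative or more positive in the systemic than in the local leaf for 65 transcripts (6.04% of all tested) and the reverse for 0 (7.13%), a count that was also 0 at an unadjusted p under 0.05 and with edgeR and DESeq2. The comparisons under DPI share libraries with each other, as do the ones that use the water control systemic leaf, so that their counts are not independent. Local and systemic leaves could come from the same plants. The test between the leaves took their libraries as independent, and this pairing was not checked.

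**Figure D1:**
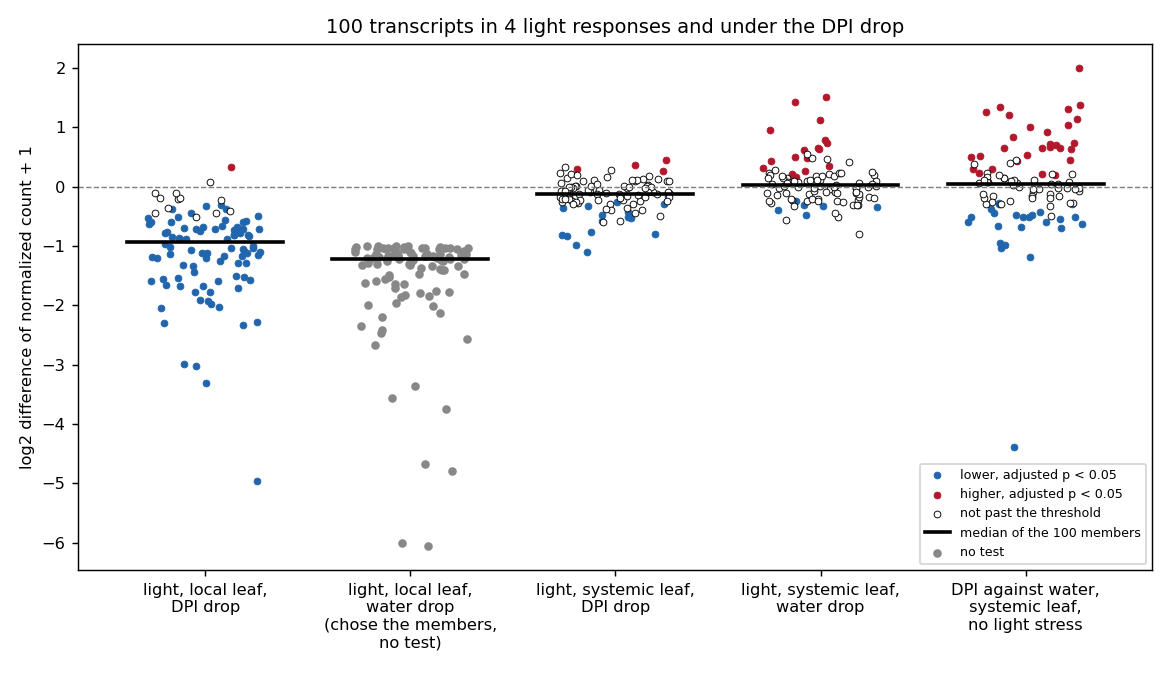
Log2 difference of normalized count + 1 (vertical axis) of each of the 100 transcripts (points) in 5 comparisons, with the median as a bar. Blue and red points passed the test as lower and higher, white points did not, and the grey column chose the transcripts and has no test. The local medians are -0.93 under DPI and -1.23 under water, while the systemic light responses centre near 0 with a red upper tail under water.

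Of the 87 that fell in the DPI local leaf, 52 passed the test in no other of the tested light responses, and 18 rose in the water systemic leaf. Another 12 of the 100 passed in none of the 3 tested light responses. Each of the 100 had its lowest mean of the 8 groups in a lit local leaf, 55 under water and 45 under DPI, an order that the rule itself favours for the water leaf.

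**Figure D2:**
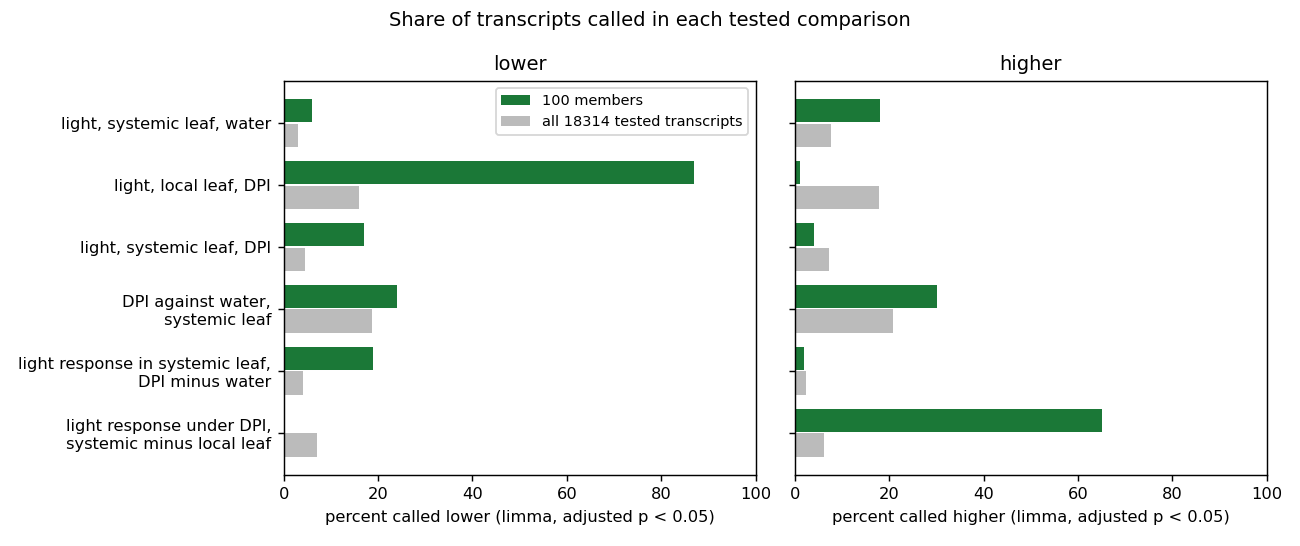
Percent of transcripts called lower (left) and higher (right) at an adjusted p under 0.05 in the 6 tested comparisons, for the 100 transcripts (green) and for all 18314 tested (grey). The green bar is 87 for the local light response under DPI, against a grey bar of 15.9.

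The largest difference under water was that of PDF1 (AT2G42840, protodermal factor 1), a proline-rich protein made in the outermost cell layer. In the local leaf PDF1 had 1.09, 1.04 and 0 normalized counts in water high light, against 102, 101 and 121 in water control. Its levels were 11.4, 1.08 and 2.02 in DPI high light and 51.0, 39.6 and 34.7 in DPI control of that leaf. Both lit groups held PDF1 near the floor, and no lit library reached any control, with a log2 difference of -3.31 ± 0.35 under DPI (SE, adjusted p = 3.9e-10). The lit DPI libraries were uneven, with replicate 1 above replicates 2 and 3.

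In the systemic leaf PDF1 went the other way under water. It had 78.1, 101 and 83.1 normalized counts in water high light, against 34.4, 32.0 and 28.7 in water control, a difference of 1.43 ± 0.35 (adjusted p = 0.0040). Under DPI its systemic levels were 54.7, 56.8 and 69.6 in high light and 75.5, 66.1 and 70.6 in control, which overlapped. The 2 light responses of the systemic leaf differed by -1.66 ± 0.50, DPI minus water (adjusted p = 0.035). That call was lost in 12 of 20 alternatives, 10 of them single libraries left out, with an adjusted p of up to 0.12.

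LTL1 (AT3G04290, Li-tolerant lipase 1), a lipase of the GDSL family, had the same shape. Its local levels were 0, 4.31 and 4.04 normalized counts in DPI high light and 79.3, 102 and 95.9 in DPI control, a difference of -4.96 ± 0.38 (adjusted p = 4.4e-14). In the water local leaf it had 3.28, 0 and 2.84 in high light and 163, 162 and 164 in control. All 6 lit local libraries were at 0, at the floor or just above it, and all 6 controls were far higher. At such levels the size of the log2 difference depends on the 1 added to each count.

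In the systemic leaf LTL1 had 127, 129 and 112 normalized counts in water high light, against 38.9, 44.1 and 44.8 in water control (1.51 ± 0.38, adjusted p = 0.0049). Without light stress it was already at 161, 186 and 173 in the DPI systemic leaf, 2.00 ± 0.38 above water control on the log2 scale (adjusted p = 3.6e-05). After high light the DPI systemic leaf had 118, 105 and 118, below all 3 DPI controls but not past the test (adjusted p = 0.40). For LTL1 the systemic light responses differed by -2.11 ± 0.54, DPI minus water (adjusted p = 0.0091, lost only without the filter on low values, at 0.066).

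Next in the order of the rule were 2 fatty acid desaturase genes and 2 genes for glycine-rich proteins. AT1G06360, a desaturase family member, had 21.4, 27.99 and 34.3 normalized counts in the DPI high light local leaf, against 138, 142 and 137 in its control (-2.30 ± 0.13, adjusted p = 8.6e-18). ADS1 (delta 9 desaturase 1) had 2.85, 9.69 and 6.06 in the DPI high light local leaf, against 49.8, 55.8 and 53.1 in control (-3.02 ± 0.24, adjusted p = 1.0e-13). The lit and the control libraries stood far apart for both desaturases. Under water AT1G06360 rose in the systemic leaf (0.73 ± 0.13, adjusted p = 7.3e-05), while ADS1 did not pass the test (0.21 ± 0.24).

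Of the glycine-rich pair, AT4G29020 fell by 2.27 on the log2 scale in the DPI local leaf and AT1G04800 fell by 2.99. AT4G29020 was higher with high light in the water systemic leaf, with 128, 136 and 129 normalized counts in high light and 65.5, 49.7 and 64.8 in control (1.12 ± 0.20, adjusted p = 5.0e-05). Its levels in the DPI systemic leaf were 113, 101 and 142 in high light and 146, 145 and 166 in control, so that all 3 DPI controls were above all 3 water controls. AT1G04800 overlaps AT1G04790 on the opposite strand, and as the counting is not stated to use strand, reads of the pair cannot be told apart.

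AT5G02890, of the HXXXD acyltransferase family, had 21.4, 22.6 and 21.2 normalized counts in the DPI high light local leaf, against 79.3, 81.1 and 70.4 in control (-1.78 ± 0.20, adjusted p = 8.7e-10). Of the 10 transcripts with the largest rule difference, 10 fell in the DPI local leaf, where 87 of the 100 and 15.9% of all tested transcripts fell. In the water systemic leaf 5 of the 10 rose, against 18 of the 100 and 7.66% of all tested transcripts. The number that fell there was 0, which is near the 3.1% of all tested transcripts. The fifth riser was TT4 (AT5G13930), chalcone synthase, which makes the first flavonoid. TT4 had 81.1, 109.8 and 110.1 normalized counts in the DPI high light local leaf, against 334, 271 and 306 in control (-1.60 ± 0.11, adjusted p = 4.4e-15).

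For TT4 the 2 drops gave opposite systemic responses. Under water its systemic levels were 391, 328 and 344 in high light, against 176, 192 and 176 in control (0.96 ± 0.11, adjusted p = 1.5e-08). Under DPI they were 180.1, 201 and 204 in high light, against 375, 476 and 415 in control (-1.10 ± 0.11, adjusted p = 5.7e-10). The groups did not overlap in either case, and the responses differed by -2.06 ± 0.16 (adjusted p = 9.1e-13). Of 13 tested genes of the flavonoid and anthocyanin pathway, 5 fell in the DPI local leaf and 6 in the DPI systemic leaf, while 4 rose in the water systemic leaf.

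**Figure D3:**
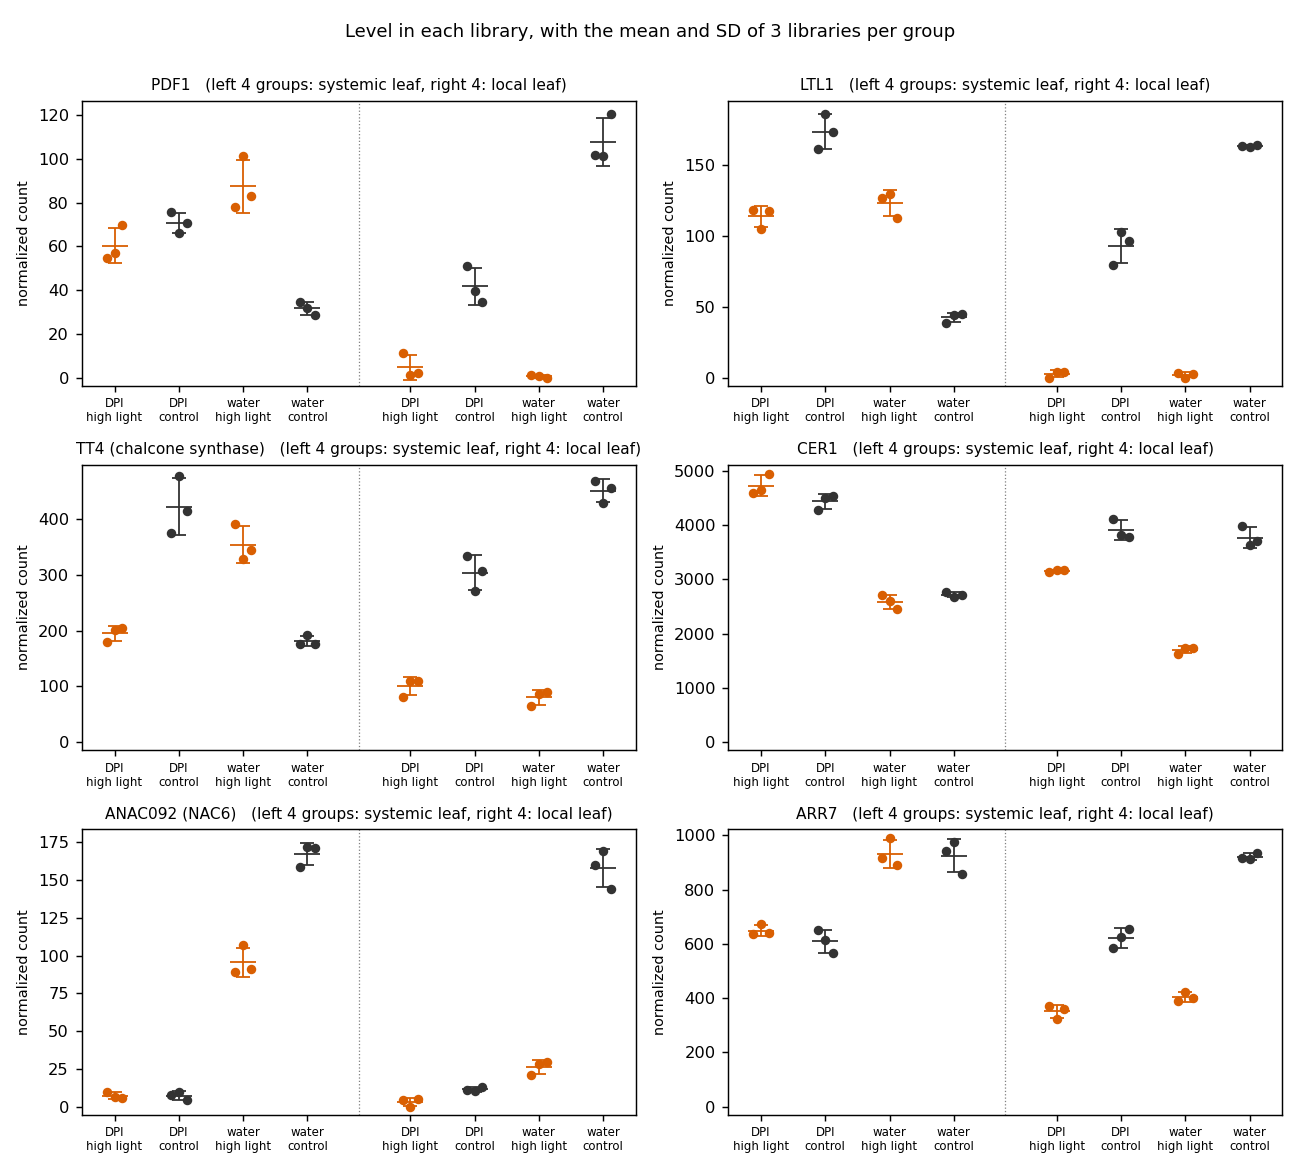
Normalized count (vertical axis, from 0) of 6 transcripts in each library (points), with the mean and SD of 3 libraries, for the systemic leaf on the left and the local leaf on the right of each panel. High light is orange and control black. PDF1 and LTL1 sit near 0 in both lit local groups, NAC6 is near 0 in all 4 DPI groups, and CER1 falls least of the 6 in the local leaf under DPI.

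Genes of the cuticle and of surface lipids were a further group. Of 47 tested wax, cutin and very-long-chain fatty acid genes, 24 fell and 10 rose in the DPI local leaf, with a median of -0.16, and of 42 tested GDSL lipases 18 fell and 6 rose, with a median of -0.19. The wax and cutin list holds 5 of the 100 and the GDSL list 4, all of which fell there. LTL1 is not in the GDSL list, which was matched on descriptions, and is not counted in it.

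CER1, an enzyme of wax alkane synthesis, was the most abundant of the 100. It had 3147, 3171 and 3166 normalized counts in the DPI high light local leaf, against 4118, 3823 and 3784 in control (-0.30 ± 0.04, adjusted p = 9.5e-08). In the water local leaf it had 1629.9, 1742 and 1733 in high light and 3984, 3629 and 3704 in control. The local controls lay at a similar height under both drops, and the lit leaf was lower under water. Without light stress the systemic leaf held more CER1 under DPI, at 4275, 4508 and 4532, than under water, at 2762, 2677 and 2719.8 (0.71 ± 0.04, adjusted p = 1.7e-17).

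HTH (HOTHEAD), an oxidoreductase of cutin monomer synthesis, had 713, 643 and 774 normalized counts in the DPI high light local leaf, against 1040.0, 1008 and 935 in control (-0.49 ± 0.06, adjusted p = 1.8e-09). It rose with high light in the water systemic leaf (0.26 ± 0.06, adjusted p = 0.00062) and was higher under DPI than under water there without light stress (0.64 ± 0.06, adjusted p = 1.4e-12). FAR1 (AT5G22500), a fatty acid reductase that makes alcohols for suberin, fell in the DPI local leaf (-0.81 ± 0.14, adjusted p = 1.2e-05). FAR1 was higher by 1.37 ± 0.14 in the DPI than in the water systemic leaf without light stress (adjusted p = 1.5e-10).

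CER2 and KCS19 differed from these. CER2, needed to elongate the longest wax acids, fell in the lit local leaf under DPI (-0.53 ± 0.07, adjusted p = 1.2e-07). It fell in the systemic leaf under water as well, to 369, 365 and 412 normalized counts in high light, against 452, 497 and 504 in control (-0.34 ± 0.07, adjusted p = 0.00060). CER2 overlaps ATR1 on the opposite strand, whose mean was 1438. KCS19, a 3-ketoacyl-CoA synthase of the first step of chain elongation, was lower with high light in the DPI systemic leaf, with 73.6, 44.8 and 64.0 in high light and 110.3, 107 and 101 in control (-0.82 ± 0.19, adjusted p = 0.0021).

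Of the GDSL genes, AT4G28780 fell in the DPI local leaf (-0.59 ± 0.06, adjusted p = 5.1e-10), with 431, 507 and 484 normalized counts in high light and 723, 704 and 714 in control. It rose in the water systemic leaf, with 549, 543 and 541 in high light and 385, 415 and 414 in control (0.43 ± 0.06, adjusted p = 2.6e-06). The 3 DPI controls of the systemic leaf, at 815, 836 and 852, were above all of these (1.04 ± 0.06 over water control, adjusted p = 7.4e-17). AT4G18970 and AT2G04570 fell by 0.69 and 0.89 on the log2 scale in the DPI local leaf, and both were higher under DPI than under water in the unstressed systemic leaf, by 0.65 and 0.84. AT1G33811 also fell there (-0.77 ± 0.08, adjusted p = 7.5e-10), and its systemic levels under the 2 drops without light stress differed by 0.07 ± 0.08, which did not pass the test.

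PDF1 is also a marker of the epidermis, so the other markers of that layer were set beside it. KCS6, KCS10, LP1 and ATML1, none of them among the 100, fell in the DPI local leaf, by 0.49, 0.21, 0.17 and 0.11 on the log2 scale, where PDF1 fell by 3.31. The 5 epidermal markers summed to 23697 to 23908 normalized counts in the DPI high light local leaf and 28012 to 29645 in its control, and to 25971 to 27390 in the water high light local leaf and 32752 to 34013 in its control. Of 7 guard cell markers, 4 fell and 1 rose in the DPI local leaf. The 3 phloem companion cell markers (SUC2, SULTR2;1 and HA3) rose in the DPI local leaf and fell in the water systemic leaf. KCS6 and KCS10 fell in the water systemic leaf (-0.20 and -0.19), where PDF1 rose. The part of the epidermal share in these results was not tested, and in whole leaves fewer cells of a type and less RNA per cell cannot be told apart.

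Growth-related hormone transcripts were another group. Of 47 tested SAUR genes, 26 fell and 5 rose in the DPI local leaf, with a median of -0.61, and all 6 of them among the 100 fell. SAUR65 (AT1G29460) had 121, 146 and 121 normalized counts in the DPI high light local leaf, against 293, 284 and 320.5 in control (-1.21 ± 0.10, adjusted p = 1.6e-13). SAUR50 (AT4G34760) had 119.6, 165 and 181 there, against 323, 283 and 320.5 in control (-1.01 ± 0.11, adjusted p = 9.4e-10). Lit and control libraries were separate for both.

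SAUR68 fell by 1.17 and SAUR20 by 0.56 on the log2 scale in the DPI local leaf. SAUR29, named after its values were seen, fell by 1.32. SAUR22 fell by 0.58 (adjusted p = 0.0045, and 0.054 without DPI control local replicate 2). With light to the local leaf, 6 of the 47 SAUR genes fell and 2 rose in the water systemic leaf, with a median of -0.16. SAUR65 was 1 of the fallers (-0.33 ± 0.10, adjusted p = 0.018), a call lost without water high light replicate 1 or water control replicates 1 or 2 (adjusted p up to 0.14). Members of this family share long stretches of sequence, and reads could be split between neighbours such as SAUR65 and SAUR68.

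Of the cytokinin list, 10 of 36 tested genes fell and 5 rose in the DPI local leaf, with a median of -0.04. The type-A response regulators ARR7, ARR6 and ARR15 were the 3 among the 100. ARR7 had 370.1, 323 and 359.6 normalized counts in the DPI high light local leaf, against 583, 625 and 655 in control (-0.82 ± 0.06, adjusted p = 1.9e-14). Its systemic response to light, 0.09 ± 0.06 with DPI and 0.01 ± 0.06 with water, did not pass the test. ARR6 fell by 0.84 and ARR15 by 1.12 on the log2 scale in the DPI local leaf.

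All 3 of these regulators were lower under the DPI drop without high light. In the unstressed systemic leaf ARR7 had 651, 613 and 567 normalized counts under DPI, against 942, 975 and 859 under water (-0.60 ± 0.06, adjusted p = 1.1e-10). ARR15 had 128, 111 and 105 under DPI, against 241, 233 and 198 under water (-0.96 ± 0.11, adjusted p = 5.6e-09). ARR6 differed by -0.67 ± 0.09 (adjusted p = 2.3e-08). Of the cytokinin list, 16 of the 36 were lower and 6 higher under DPI in that leaf, where 18.8% of all tested transcripts were lower and 20.7% higher.

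Of 17 tested genes of the gibberellin list, 3 fell and 5 rose in the DPI local leaf, with a median of -0.02, where 15.9% of all tested transcripts fell and 17.9% rose. GA3OX1, which makes the active hormone, did not pass the test in the DPI local leaf (-0.45 ± 0.23, adjusted p = 0.14), and GASA4, a gibberellin-regulated peptide gene, fell (-0.71 ± 0.12, adjusted p = 1.2e-05). RTFL16, of a family of small peptides that restrain cell proliferation, had 297, 284 and 291 normalized counts in the DPI high light local leaf, against 838, 834 and 821 in control (-1.51 ± 0.05, adjusted p = 1.0e-24). RTFL16 fell in the DPI systemic leaf as well, to 631, 539 and 551 in high light, against 863, 827 and 799 in control (-0.53 ± 0.05, adjusted p = 3.3e-10). In the water systemic leaf it had 949, 937 and 931 in high light and 1011, 1017 and 979 in control, which did not pass the test.

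Cell wall lists did not move one way. In the DPI local leaf 2 of 23 tested xyloglucan endotransglucosylase genes fell and 11 rose, 5 of 48 arabinogalactan, extensin and proline-rich protein genes fell and 19 rose, and 10 of 19 expansin genes fell and 4 rose. The pectin list, of enzymes that modify or cut pectin and their inhibitors, holds 6 of the 100 and 94 tested genes, of which 28 fell and 17 rose in the DPI local leaf. AT1G10640, a pectin lyase-like protein, had 32.7, 33.4 and 37.4 normalized counts in the DPI high light local leaf, against 140.5, 127 and 132 in control (-1.92 ± 0.11, adjusted p = 6.1e-18). The invertase/pectin methylesterase inhibitor genes AT3G62820 and AT1G23205 fell by 0.78 and 0.69 on the log2 scale, and AT4G13710 did not pass the test (-0.41 ± 0.20). EXPA16, an expansin that loosens the wall, fell by 1.01 in the lit DPI local leaf and was higher by 1.26 ± 0.17 under DPI than under water in the unstressed systemic leaf (adjusted p = 1.0e-07).

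In the unstressed systemic leaf 24 of the 100 were lower and 30 higher under DPI than under water, with a median of 0.04, where 18.8% of all tested transcripts were lower and 20.7% higher. Among genes with a mean of at least 50 in the water control local leaf 22.2% were lower and 22.7% higher, so that the share that was lower is near the background. The largest difference was in ANAC092 (NAC6, AT5G39610), a NAC transcription factor that promotes leaf senescence. It had 7.95, 9.91 and 4.36 normalized counts under DPI, against 159, 172 and 171 under water (-4.38 ± 0.37, adjusted p = 8.0e-13).

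The DPI libraries of ANAC092 were low in both leaves. Its local levels were 4.27, 0 and 5.05 in DPI high light and 11.3, 10.1 and 13.3 in DPI control, against 20.8, 28.1 and 29.3 in water high light and 160.2, 169 and 144 in water control. The fall in the DPI local leaf passed the test (-1.98 ± 0.37, adjusted p = 3.6e-05) although it spans few reads. In the water systemic leaf ANAC092 had 89.1, 107 and 91.2 in high light, below the 159, 172 and 171 of control in every library. The difference of -0.80 ± 0.37 was not past the test with all libraries in 1 fit (adjusted p = 0.19), and was past it with only the 2 groups compared (adjusted p = 0.00054) and with edgeR on the recovered reads (adjusted p = 2.2e-05).

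ANAC059 (NAC3, AT3G29035), a close relative with the same known role, was less affected by the drop. It had 55.6, 42.9 and 46.2 normalized counts in the unstressed systemic leaf under DPI, against 107, 90.5 and 92.9 under water (-0.99 ± 0.23, adjusted p = 0.00045). In the local leaf under DPI it had 8.54, 16.1 and 13.1 in high light and 78.2, 58.8 and 61.2 in control (-2.33 ± 0.23, adjusted p = 3.7e-11). Of 58 tested NAC genes, 24 fell and 8 rose in that comparison, with a median of -0.30.

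The list of ubiquitin ligase subunits holds 4 of the 100 and 614 tested genes, of which 115 fell and 89 rose in the DPI local leaf, with a median of -0.04. These counts are near the 15.9% of all tested transcripts that fell and the 17.9% that rose. Its members AT3G18773, AT3G23880 and AT1G04360 had differences of -1.52 ± 0.15, -1.29 ± 0.12 and -1.28 ± 0.12 there, and all passed the test. Outside the list, BOI (AT4G19700), a RING protein that restrains cell death, was lower under DPI without light stress in the systemic leaf, with 124, 109 and 127 normalized counts, against 302, 243 and 277 under water (-1.18 ± 0.11, adjusted p = 3.4e-11). In the DPI local leaf BOI had 47.0, 38.8 and 48.5 in high light and 145, 149 and 137 in control (-1.67 ± 0.11, adjusted p = 1.9e-15). Its relatives BRG1 and, named after its values were seen, BRG3 fell by 1.25 and 1.09 on the log2 scale in that comparison. BT2, a BTB and TAZ domain protein of the list, was lower by 1.03 on the log2 scale under DPI in the unstressed systemic leaf (adjusted p = 2.7e-06).

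**Figure D4:**
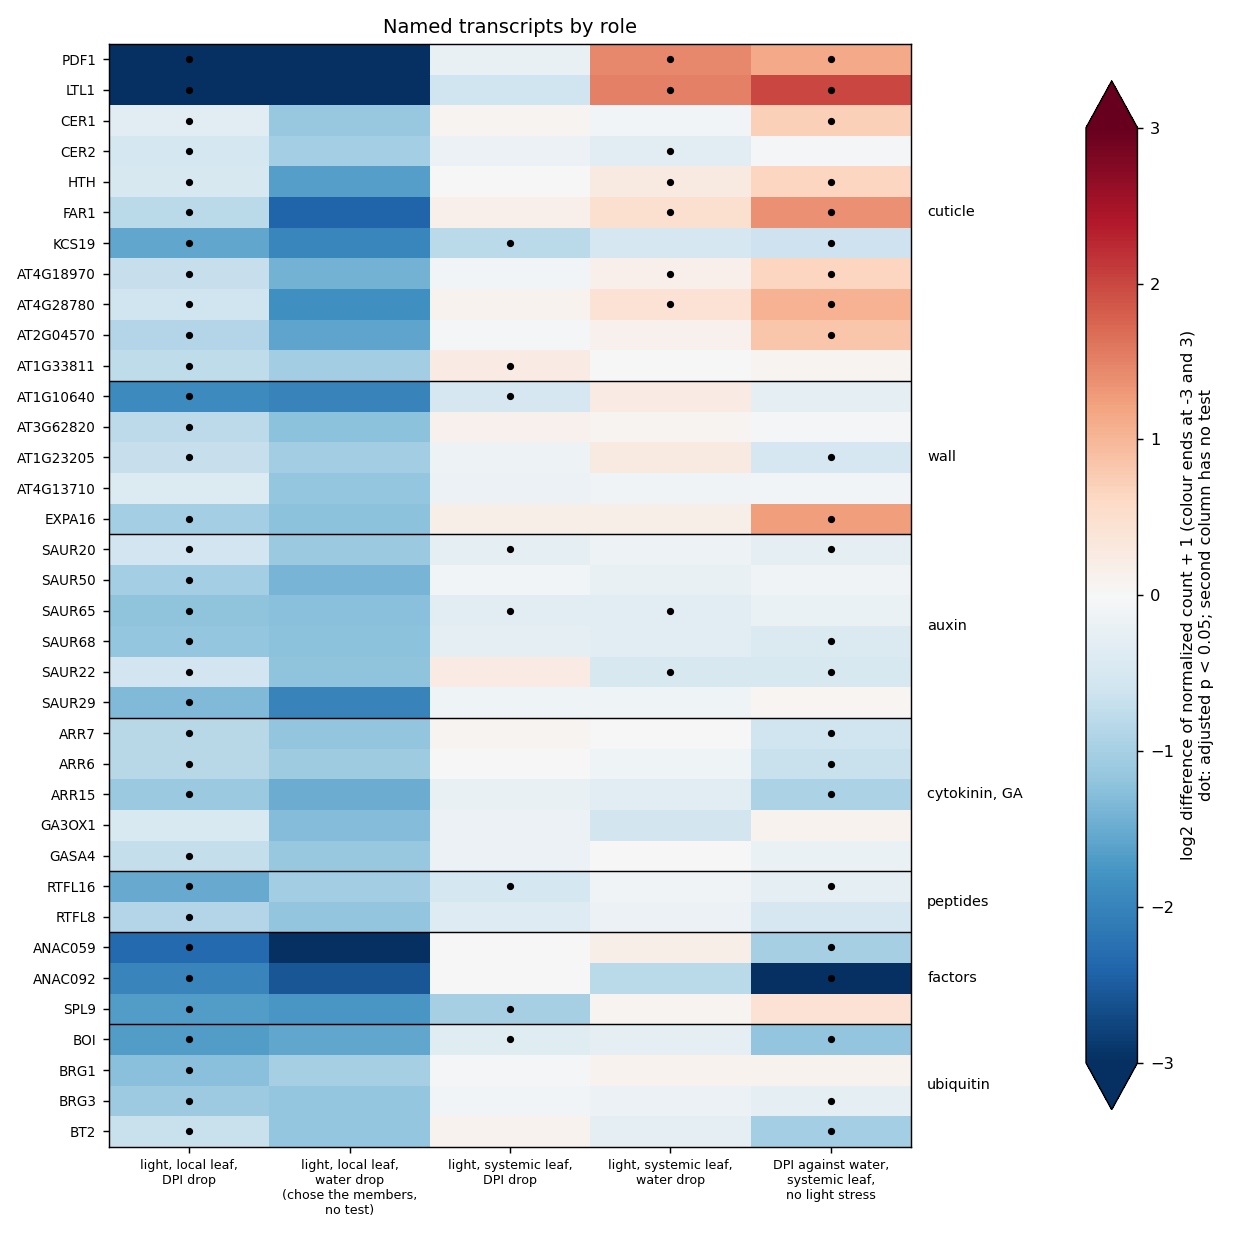
Log2 difference of normalized count + 1 (colour, red higher and blue lower, ending at -3 and 3) of 36 named transcripts (lines, grouped by role) in 5 comparisons (columns). Dots mark an adjusted p under 0.05, and the second column chose the transcripts and has no test. The first column is blue throughout, while the 2 right columns split the roles. LTL1, FAR1 and EXPA16 are red under DPI without high light, and ARR15, BOI and ANAC092 are blue.

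Of the 18 that rose with high light in the water systemic leaf, 13 were also higher under DPI than under water without light stress. These 2 comparisons share the water control systemic libraries, which were low for these transcripts. Of the same 18, 5 fell with light in the DPI systemic leaf. For the 100 the systemic light response was more negative under DPI than under water in 19 and more positive in 2, where 4.08% and 2.32% of all tested transcripts were. The 2 became 4 without water high light systemic replicate 2, and were 4 with edgeR and with quantile normalization. MLP423, a major latex protein relative, differed by -1.22 ± 0.27 in this way, with 39.8, 37.2 and 41.6 normalized counts in DPI high light, 61.6, 52.8 and 65.4 in DPI control, 69.3, 63.6 and 79.0 in water high light and 50.0, 47.4 and 38.1 in water control of the systemic leaf (adjusted p = 0.0025).

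AT2G12462, annotated with a sterile alpha motif, fell with high light in the DPI systemic leaf, with 44.8, 61.2 and 57.6 normalized counts in high light and 116, 79.3 and 100.3 in control (-0.84 ± 0.16, adjusted p = 0.00020). AT1G31690, a copper amine oxidase, rose in the water systemic leaf, with 119.9, 124 and 91.2 normalized counts in high light and 62.2, 58.5 and 72.2 in control (0.78 ± 0.16, adjusted p = 0.00030). SPL9, a factor of the change from juvenile to adult leaves, was lower with light under DPI in the systemic leaf, at 35.8, 36.1 and 45.6, against 69.6, 85.0 and 80.2 in control (-0.98 ± 0.20, adjusted p = 0.00045). Under water SPL9 had 59.4, 53.9 and 69.9 in high light and 57.8, 61.8 and 52.1 in control, which overlapped. Its responses under the 2 drops differed by -1.07 ± 0.29 (adjusted p = 0.015, and 0.055 without water high light systemic replicate 3).

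The most abundant members after CER1 had small standard errors. AT5G19190, an uncharacterized protein, fell in the DPI local leaf (-0.78 ± 0.04, adjusted p = 3.3e-19). ATCTH (AT2G25900, a tandem zinc finger protein that binds RNA) had 1297, 1122 and 1159.7 normalized counts in the DPI high light local leaf, against 3837, 3434 and 3571 in control (-1.60 ± 0.05, adjusted p = 5.1e-28). AT2G20670, a DUF506 protein, had 1432, 1337 and 1356, against 2869.8, 2941 and 2836 (-1.07 ± 0.04, adjusted p = 1.3e-22). AT2G20670 rose in the systemic leaf under both drops, by 0.36 ± 0.04 under DPI and by 0.22 ± 0.04 under water (adjusted p = 3.2e-08 and 0.00032). GER3, a germin, fell in the DPI local leaf (-1.10 ± 0.06, adjusted p = 1.7e-19), and its control level there, 1040.0, 991 and 913, was under the 2368, 2152 and 2041 of water control.

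The kinase list holds 3 of the 100 and 1049 tested genes, of which 212 fell and 245 rose in the DPI local leaf. Of all tested transcripts 15.9% fell and 17.9% rose there. BLUS1 (AT4G14480), a kinase of the blue light response of stomata, had 37.0, 36.6 and 38.4 normalized counts in the DPI high light local leaf, against 105, 137 and 123.5 in control (-1.67 ± 0.14, adjusted p = 7.8e-13). Its systemic response to light, 0.09 ± 0.14 with DPI and -0.02 ± 0.14 with water, did not pass the test. AT5G21940, described as a histidine kinase-like protein, fell by 2.04 on the log2 scale in the DPI local leaf, but it overlaps PAA2 on the opposite strand, whose mean was 2638. SERK1, a receptor kinase, did not pass the test (-0.20 ± 0.21).

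Of the 100, 13 were not called lower in the DPI local leaf, although 98 of the 100 had a negative difference there. AT3G54400, an aspartyl protease gene, was the 1 that rose: it had 595, 632 and 568 normalized counts in DPI high light and 495, 438 and 502 in DPI control (0.32 ± 0.07, adjusted p = 0.00060). In the water local leaf it had 386, 438 and 412 in high light and 779, 847 and 853 in control. The other 12 did not pass the test, among them POK1, a kinesin of the division plane, ACS4, an enzyme of ethylene synthesis, AT4G32460 and AT5G23910.

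POK1 had 48.4, 27.99 and 26.3 normalized counts in the DPI high light local leaf and 29.5, 28.4 and 36.7 in control (0.07 ± 0.24, adjusted p = 0.86), which overlapped. In the water local leaf it had 17.5, 31.2 and 31.2 in high light and 84.6, 93.9 and 67.6 in control, so that its DPI control was already at the level of the lit water leaf. For ACS4 the DPI levels were 37.0, 57.1 and 34.3 in high light and 51.0, 48.7 and 43.9 in control (-0.19 ± 0.22). Its lit and control libraries overlapped as well.

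The precursor of miRNA 167d (MIR167d) was the only miRNA gene of the 100. It fell in the DPI local leaf (-0.74 ± 0.11, adjusted p = 4.2e-07) and rose in the DPI systemic leaf, with 306, 249 and 274 normalized counts in high light and 187, 207 and 214 in control (0.44 ± 0.11, adjusted p = 0.0031). In the water systemic leaf it had 119.9, 154 and 144 in high light and 132, 145 and 147 in control. AT1G78170, annotated as a ubiquitin ligase, was lower with light in each tested leaf, by 1.94 in the DPI local, 0.79 in the DPI systemic and 0.40 in the water systemic leaf on the log2 scale.

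Some features that the rule did not use were more frequent among the 100, though most members lack each. Their gene models in the RefSeq annotation of TAIR10.1 had a median of 2 exons and 1490 bases of transcript, against 5 exons and 1760 bases over all tested genes, and 33% had a single exon, against 15.3%. In the window of 250 bases before to 50 after the annotated start, 29% held CACATG, a variant of the G-box core to which phytochrome-interacting factors bind, on either strand, against 12.6% of all tested genes. The G-box itself, CACGTG, was in 5% against 8.93%, the auxin response element TGTCTC in 17% against 13.5%, and the heat shock core GAANNTTC in 6% against 11.6%. No end of CACATG or CATGTG matches the beginning of CACGTG or the reverse, so copies cannot overlap, and a match is a description of letters only.

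The windows around CACATG are shown for 4 SAUR genes and GA3OX1, since they belong to the growth group. They are printed from 5′ to 3′ on the strand of the gene, and capitals mark CACATG or its reverse complement CATGTG.
SAUR29, chr3:977601-977656, minus strand: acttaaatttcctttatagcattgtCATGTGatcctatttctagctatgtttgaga
SAUR65, chr1:10308320-10308375, minus strand: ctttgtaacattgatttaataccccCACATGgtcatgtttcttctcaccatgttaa
SAUR68, chr1:10322356-10322411, plus strand: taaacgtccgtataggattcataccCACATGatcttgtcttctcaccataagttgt
SAUR22, chr5:5975162-5975217, minus strand: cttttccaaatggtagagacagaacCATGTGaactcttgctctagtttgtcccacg
GA3OX1, chr1:5346382-5346437, minus strand: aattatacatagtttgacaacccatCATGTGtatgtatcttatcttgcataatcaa

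In these genes the first base of the capitals lay 157, 104, 42, 105 and 70 bases before the start in the order shown. The L1 box, TAAATGCA or TAAATGTA, is a site found before genes of the outermost cell layer and was searched after the members had been seen. It was in 14% of the 100 windows, against 5.08% of all tested genes, on either strand. The form TAAATGCA can share its CA with the beginning of CACATG or CATGTG, and its reverse complement can share TG with their end. The form TAAATGTA can share neither. PDF1, ARR15 and POK1 were among the 14, and in PDF1 it did not lie wholly before the start. Windows are shown for 3 genes, the desaturase gene AT1G06360, AT1G11850 and SPL9, with the L1 box or its reverse complement in capitals.
AT1G06360, chr1:1940514-1940571, minus strand: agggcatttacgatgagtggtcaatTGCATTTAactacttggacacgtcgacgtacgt
AT1G11850, chr1:3999089-3999146, plus strand: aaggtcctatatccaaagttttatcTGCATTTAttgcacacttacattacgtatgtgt
SPL9, chr2:17587128-17587168, plus strand: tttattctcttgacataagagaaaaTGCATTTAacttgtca

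AT1G06360 holds both motifs in its window, with the CACATG copy 122 and the L1 box 50 bases before the start. All 3 of these genes fell in the DPI local leaf, as did 87 of the 100 with or without the box. Their log2 differences were -2.30 for AT1G06360, -1.78 for AT1G11850 and -1.68 for SPL9. Of other members with the box, PDF1 differed by -3.31, ARR15 by -1.12 and AT5G19190 by -0.78 in that comparison. POK1 (0.07) did not pass the test there.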

How the data were processed

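RNA-seq reads of 24 libraries (8 groups of 3 replicates, grouped by sample title) were measured. The authors checked single-end reads of a stranded kit with FastQC (version 0.11.7), aligned them with STAR (version 2.4.0.1) to TAIR10 and normalized counts per gene with DESeq2 (version 1.20.0). The values deposited by the authors are thus a normalized signal, gene counts divided by size factors. Dividing by the value of 1 read gave whole reads for 100% of values (tolerance 1e-06 reads). Whether counting used strand is not given in the sources used here, so overlapping and near-identical genes are uncertain.

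The test was limma (3.58.1, in R 4.3.3) on log2(normalized count + 1) (trended prior, two-sided, Benjamini-Hochberg over 18314 genes with at least 10 in at least 3 libraries). One fit of all 24 libraries with 8 group means was used. Fold changes on this scale are understated at low level. Floors cover counting error only, and ± is the SE of the fit over libraries unless stated. The 6 comparisons that avoid the water local leaf were tested. edgeR (4.0.16) and DESeq2 (1.42.0) on recovered reads, a pseudocount of 5, no filter, TMM, quantile normalization, only the groups compared, a replicate block and leaving out each library were alternatives. The fit was tested on simulated data.

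The members, lists and rules were chosen with earlier results of these data known. Named were the 10 members with the most negative rule difference, the 5 with the highest mean, the 5 largest called changes each way per comparison, the 5 nearest 0 in the DPI local leaf, 3 genes on each side of the threshold and up to 4 per list with at least 2 members, with some left out for room. SAUR29, BRG3 and AT1G11850 lie outside this rule and were named after their values were seen. Lists matched RefSeq symbols, synonyms and descriptions (TAIR10.1, 32548 of 32833 identifiers, all 100 members). Counts of a list in the DPI local leaf stand beside 15.9% lower and 17.9% higher over all tested transcripts. Genes that only share a synonym with another gene were removed from lists, and descriptions were matched regardless of a capital first letter, both decided after the data were seen. Coordinates and sequences are those of TAIR10.1, since the table itself holds none.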

Additional observations from a re-analysis of the deposited data

Results flagged for a closer look

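In the systemic leaf the light response differed between the drops, by a test of the difference itself (DPI minus water, limma). Of the 100 transcripts, 19 responded more negatively under DPI, against 4.08% of all tested transcripts. Another 2 responded more positively, which is near the 2.32% of all tested transcripts. The log2 differences were -2.11 for LTL1, -2.06 for TT4, -1.66 for PDF1, -1.49 for AT4G29020 and -1.22 for MLP423. They were 0.54 for AT3G54400 and 0.44 for AT5G15780. AT3G54400 rose with light in the systemic leaf under DPI (0.30 ± 0.07, adjusted p = 0.0032, and 0.065 without DPI high light systemic replicate 3), while it was lower with light under water (-0.24 ± 0.07, adjusted p = 0.030, a call lost in 6 of 14 alternatives).

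Under DPI the light response differed between the leaves (systemic minus local): 65 transcripts responded more positively in the systemic leaf and 0 more negatively. Of all tested transcripts 6.04% and 7.13% did so. The log2 differences were 4.36 for LTL1, 3.08 for PDF1, 2.87 for AT1G04800, 2.63 for ADS1 and 2.48 for AT1G06360. In each of these 5 the systemic response did not pass the test, with adjusted p of at least 0.37.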

How the results depend on the processing

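No result changed direction under any alternative run, and for the 31 named results 456 of 482 alternative values kept their side of the threshold, with 22 no longer past it and 4, all for the water systemic response of ANAC092 (NAC6), newly past it. The count of members that fell in the water systemic leaf was 6, against 13 with edgeR and 3 to 6 with 1 library left out. The count that rose in the DPI systemic leaf was 4, against 2 to 4 with 1 library left out. The count with a more positive systemic response under DPI was 2, against 4 with quantile normalization, 4 with edgeR and 2 to 4 with 1 library left out. With 1 library left out the falls in the DPI local leaf numbered 81 to 86. The rule gave 55 members at a limit of -1.2 and 202 at -0.8. The cause of these shifts was not tested, apart from the limits, which admit fewer or more genes by construction. Within a leaf type, replicates of the same number did not deviate together (correlations of -0.0085 to 0.048, 0 of 12 over 0.1). With the replicate number within leaf type as a block 87 members fell in the DPI local leaf. With that block 7 fell and 18 rose in the water systemic leaf and 16 fell and 5 rose in the DPI systemic leaf. Local and systemic libraries of the same number were not compared in this way. The floor of 3 reads limits values under about 4 normalized counts, which PDF1, LTL1 and ANAC092 reached.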
